A study of Mus musculus with 26 samples.

Results

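The 39 protein-coding genes of the HoxA, HoxB, HoxC and HoxD clusters were followed through 15 RNA-seq libraries made from mouse embryonic stem cells (mESCs). They were taken by name, as every row of the deposited tables called Hox with a cluster letter and a paralogue number, which gave 39 of 24015 genes. HoxA holds 11 of them on the minus strand of chromosome 6 (NCBIM37, 52105366 to 52210874), and HoxB holds 10 on the plus strand of chromosome 11 (96055630 to 96229570). HoxC holds 9 on the plus strand of chromosome 15 (102751534 to 102867274), and HoxD holds 9 on the plus strand of chromosome 2 (74506367 to 74603200). All libraries came from a Stella:GFP mESC line, kept in 2i+LIF, a medium with inhibitors of MEK and GSK3β. All groups other than wt in 2i+LIF were moved to serum+LIF for 5 days before RNA was taken. The groups were wt cells in serum+LIF (1 library), wt cells in 2i+LIF (2 libraries), Mtgr1-/- cells (clones A3, C1 and C3), FH-Mtgr1 rescue lines of those 3 clones, Prdm14-/- cells (clones G6 and F10), and FH-Prdm14 and E294K rescue lines of those 2 clones. Prdm14 is a zinc-finger protein of pluripotent and germ cells, and Mtgr1, encoded by Cbfa2t2, is a corepressor of the ETO family that binds it. FH stands for a FLAG-HA tag, and E294K is a substitution in Prdm14 made to break its contact with Mtgr1. The knockouts were made with CRISPR-Cas9 and each library is a single clone or its derivative, so that the spread between libraries includes that between clones. The promoter that drives the tagged transgenes is not given in the sources used here.

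Hox genes encode homeodomain transcription factors that give cells of the embryo their position along the body axis. Within each cluster the genes lie in the order in which they are used, from the anterior genes (low paralogue numbers), which are switched on first and closest to the head, to the posterior genes (high numbers). Retinoic acid and the Cdx factors are known to open the clusters, Trithorax proteins keep them active, and Pbx and Meis proteins bind DNA together with Hox proteins. In mESCs the clusters are known as long Polycomb domains with CpG-rich promoters, and their genes are held at very low levels until differentiation.

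Of the 39 genes, 22 had a promoter entry in RefSeq (GRCm38.p6, 250 bases before to 50 after the start), with 24 promoters in all. These promoters held a median of 14.5 CG dinucleotides per 300 bases, against 7 over all 32817 promoters, and 65.4% of all promoters held no more than that. At least 1 CG was found in all 24, and in 94.57% of all promoters. The letters AGGTCA, which are part of a retinoic acid receptor site and which other nuclear receptors can also bind, were searched for as a single copy. They were found on either strand in 7 of the 24 (29.17%), against 16.26% of all promoters. The letters TTTATNG, which Cdx factors can bind, were found on either strand in 2 of the 24 (8.333%), against 10.91% of all promoters. The promoters of 3 HoxD genes are shown because their genes carry results in the comparisons that follow and because they differ widely in CG content, with CG in capitals.
Hoxd13, chr2:74667975-74668274, plus strand, 37 CG: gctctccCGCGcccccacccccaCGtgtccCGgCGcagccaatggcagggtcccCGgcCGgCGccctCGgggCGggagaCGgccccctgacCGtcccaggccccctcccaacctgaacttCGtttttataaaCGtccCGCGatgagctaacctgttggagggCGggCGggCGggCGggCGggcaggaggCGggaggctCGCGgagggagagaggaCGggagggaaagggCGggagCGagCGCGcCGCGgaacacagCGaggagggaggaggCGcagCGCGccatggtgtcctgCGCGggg
Hoxd9, chr2:74697513-74697812, plus strand, 20 CG: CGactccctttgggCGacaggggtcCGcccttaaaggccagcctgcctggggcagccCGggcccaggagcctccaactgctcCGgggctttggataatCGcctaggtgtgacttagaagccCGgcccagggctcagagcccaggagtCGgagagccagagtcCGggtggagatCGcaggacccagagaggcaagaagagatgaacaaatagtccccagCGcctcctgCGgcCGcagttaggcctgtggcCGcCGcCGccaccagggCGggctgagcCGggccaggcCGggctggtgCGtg
Hoxd4, chr2:74721728-74722027, plus strand, 4 CG: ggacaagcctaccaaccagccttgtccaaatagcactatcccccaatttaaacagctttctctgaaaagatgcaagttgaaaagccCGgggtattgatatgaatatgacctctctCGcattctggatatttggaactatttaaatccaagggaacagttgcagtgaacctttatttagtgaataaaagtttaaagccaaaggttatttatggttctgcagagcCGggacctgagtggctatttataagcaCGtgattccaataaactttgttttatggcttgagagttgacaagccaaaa
The letters AGGTCA stood in the promoters of Hoxc4, Hoxd4 and Hoxd8, whose RNA fell in Mtgr1-/- cells, of Hoxb4 and Hoxd10, which did not pass that test, and of Hoxa5 and Hoxd3, which were not tested. Hoxd1, Hoxd9 and Hoxd13 fell as well and had promoter entries without these letters. The letters of the first 3 genes are shown in capitals, because their RNA is described with its values, in a short stretch of the gene's strand, where TGACCT is AGGTCA read on the other strand. A match of letters is not a bound site.
Hoxc4: ggcgctgccctgTGACCTacacagactgca
Hoxd4: ttgatatgaataTGACCTctctcgcattct
Hoxd8: ttcgctttgataAGGTCAggattcggaggc

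Levels are given as deposited, in RPKM, which scales the reads of a gene by its length in kilobases and by the reads counted on all genes of the library. The low values gave back whole reads, 10668572 to 21218414 of them per library. The RNA of the targeted genes was still present in the knockouts. Prdm14 was at 1.96 and 3.6 RPKM in the Prdm14-/- clones and 2.77 RPKM in wt serum+LIF cells, and Cbfa2t2 in Mtgr1-/- cells at 19.9, 18.6 and 18 RPKM, with 28, 26.7 and 25.5 RPKM in their rescue and 40.7 RPKM in wt serum+LIF cells. Prdm14 RNA in the Prdm14-/- clones lay on either side of the wt serum+LIF value, and Cbfa2t2 RNA in each Mtgr1-/- clone lay below its rescue and wt libraries. A cut in the coding sequence need not lower the count over the whole gene, so these values do not check the labels. Prdm14 RNA was at 116 and 79.8 RPKM in the FH-Prdm14 rescue and 105 and 89.9 RPKM in the E294K rescue, far above wt cells in serum+LIF and above the 30.8 and 19.1 RPKM of wt cells in 2i+LIF, so that the transgene RNA exceeded the endogenous level in both lines. The 6 stem cell markers were present in all libraries and added up to between 760 and 2329 RPKM.

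Hox RNA was scarce in every library. The 39 genes had 6307 reads over the 15 libraries together, 162 of the 585 values were 0 reads (27.69%), and the highest level of any member was 10.7 RPKM. No member was at 0 in all libraries, 8 members had a read in each of the 15, and 4 had a mean of at least 1 RPKM, namely Hoxc13 (3.99 RPKM), Hoxc12 (1.46 RPKM), Hoxd13 (1.28 RPKM) and Hoxd9 (1.25 RPKM). These are posterior genes, which carried most of the signal. The 16 members of paralogue groups 9 to 13 made up 78.6% and 76.7% of the summed Hox RPKM in 2i+LIF and 62.4% in wt serum+LIF cells, and between 49.6% and 57.3% in Mtgr1-/- cells. At the other end, Hoxa6, Hoxb5 and Hoxb6 had 2 to 5 reads each over all 15 libraries. A mean of at least 0.1 RPKM was required for a test, which 20 of the 39 members passed (3 of 11 in HoxA, 5 of 10 in HoxB, 5 of 9 in HoxC and 7 of 9 in HoxD). The other 19 members had between 2 and 62 reads in all and at most 24 in 1 library. Of the 20 that passed, Hoxb2, Hoxc9, Hoxd10 and Hoxd11 reached this mean only through the 2i+LIF libraries.

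**Figure D1:**
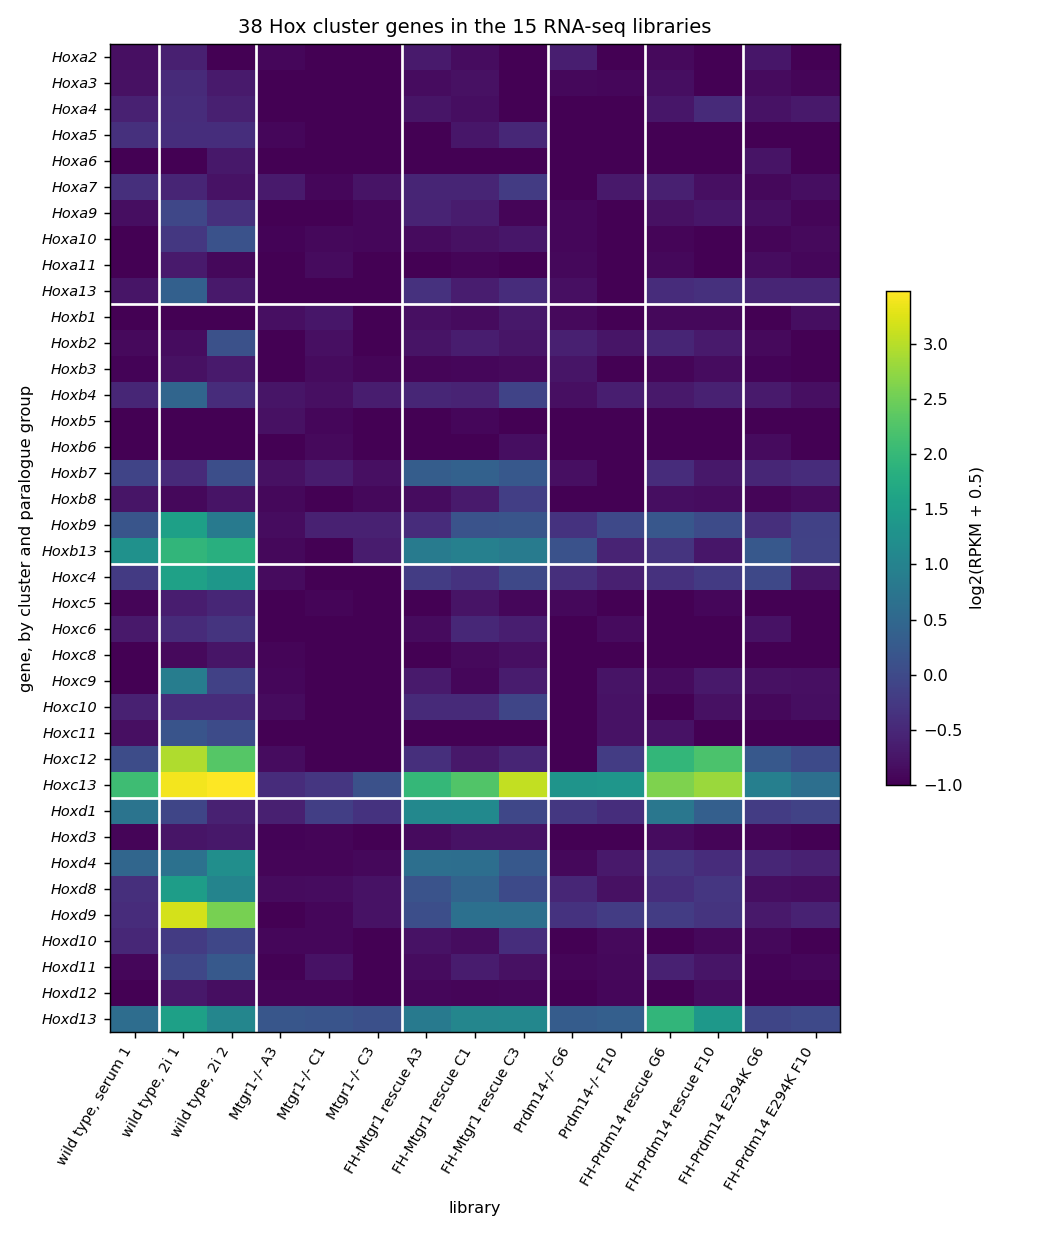
Level of 38 of the 39 Hox genes (rows, by cluster and paralogue group) in each of the 15 libraries (columns, by group), as log2(RPKM + 0.5), where the darkest shade marks 0 reads. The brightest rows are Hoxc13, Hoxc12 and Hoxd9 in 2i+LIF, with 10.1 and 10.7 RPKM for Hoxc13, and no member reaches 1 RPKM in the Mtgr1-/- columns, where 26, 23 and 16 of the 39 genes had a read.

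HoxC added up to 22.4 and 18.9 RPKM in wt 2i+LIF cells, 4.98 RPKM in wt serum+LIF cells, 4.48, 5.3 and 9.34 RPKM in the FH-Mtgr1 rescue and 9.45 and 11.2 RPKM in the FH-Prdm14 rescue. It added up to 0.445, 0.339 and 0.58 RPKM in Mtgr1-/- cells, 2.28 and 2.88 RPKM in Prdm14-/- cells and 2.75 and 1.78 RPKM in the E294K rescue. No knockout or E294K library reached the lowest rescue library. HoxD added up to 16 and 11.8 RPKM in wt 2i+LIF cells and 3.81 RPKM in wt serum+LIF cells, 5.33, 6.52 and 4.75 RPKM in the FH-Mtgr1 rescue and 0.938, 1.26 and 1.05 RPKM in Mtgr1-/- cells. In the Prdm14 lines it added up to 5.71 and 3.97 RPKM with FH-Prdm14, 1.59 and 1.71 RPKM in Prdm14-/- cells and 1.27 and 1.34 RPKM with E294K. In HoxD too, every knockout and E294K library lay below every rescue library. HoxA, the weakest cluster in most libraries, added up to 1.96, 1.77 and 2.14 RPKM in the FH-Mtgr1 rescue against 0.408, 0.47 and 0.574 RPKM in Mtgr1-/- cells, and to 1.43 and 1.37 RPKM with FH-Prdm14 against 0.895 and 0.654 RPKM in Prdm14-/- cells. HoxB added up to 2.74, 3.41 and 3.76 RPKM in the FH-Mtgr1 rescue against 0.445, 0.65 and 0.562 RPKM in Mtgr1-/- cells, but to 1.63 and 1.16 RPKM with FH-Prdm14 against 1.31 and 0.916 RPKM in Prdm14-/- cells. For HoxB the Prdm14-/- and FH-Prdm14 libraries overlapped. A sum over members was given no test.

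**Figure D2:**
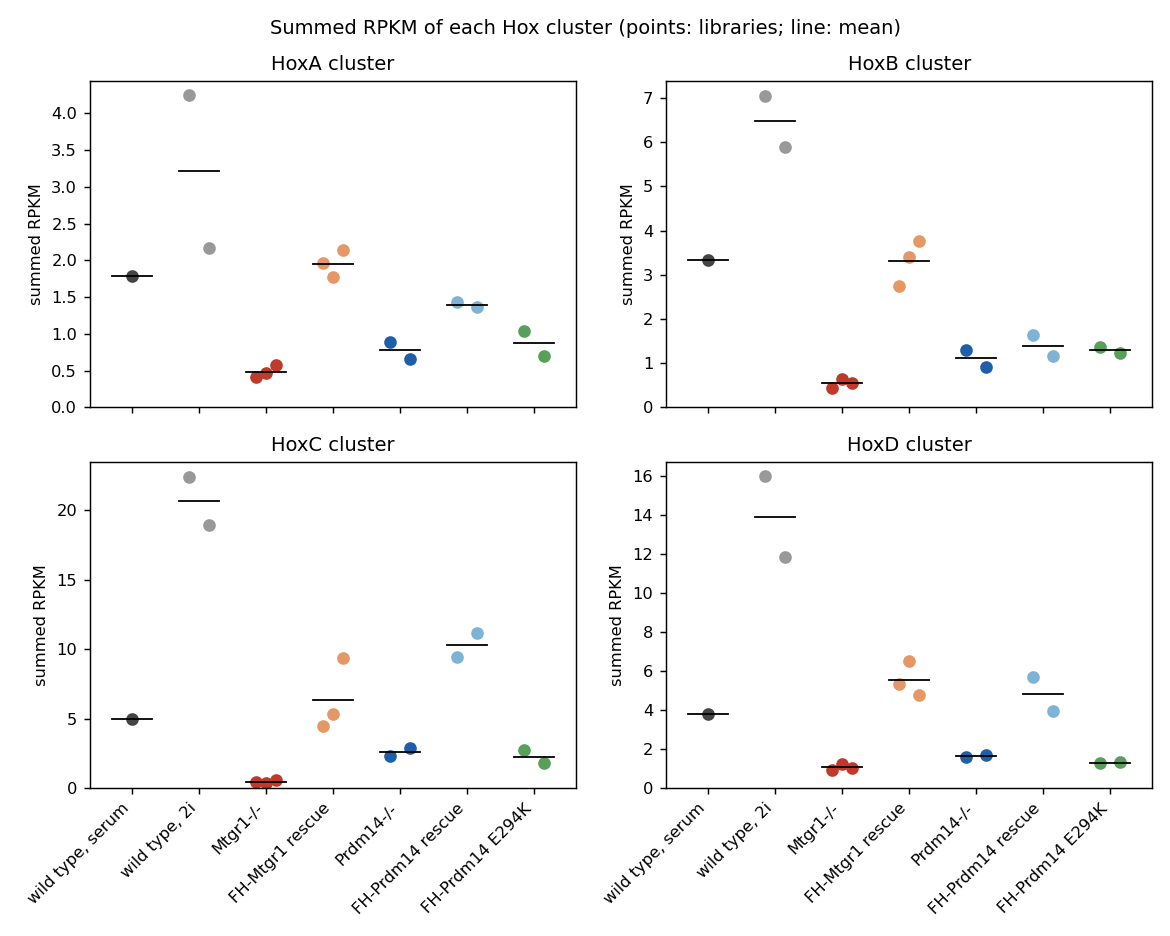
Summed RPKM of each Hox cluster (y axes from 0, with their own scale) in the 7 conditions, with a point per library and a line at the mean. Mtgr1-/- libraries lie lowest in each panel, and 2i+LIF libraries lie highest, with HoxC at 22.4 and 18.9 RPKM.

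The first comparison asks which Hox genes differed between Mtgr1-/- cells and the FH-Mtgr1 rescue in serum+LIF. Of the 20 tested members, 12 were lower in Mtgr1-/- cells than in the FH-Mtgr1 rescue and 0 were higher, while over all 16200 genes tested 25% were lower and 23.7% higher (limma on log2(RPKM + 0.5), Benjamini-Hochberg adjusted p under 0.05). The median log2 fold change was -0.70 for the 20 members and -0.05 for all genes, and 20 of the 20 were below 0. In 18 of the 20 every Mtgr1-/- library lay below every rescue library, against 31% of all genes tested. The same held for 4 of the 19 members that were not tested. These had few reads, and no share over all untested genes stands beside that count, so it is no further result. Pooled over the 3 clones, the 39 genes had 291 reads in Mtgr1-/- cells and 1778 in the rescue, or 6.4-fold (95% interval 5.65 to 7.27) more in the rescue relative to depth, where the interval covers counting error alone. By cluster, the rescue had 3.91-fold (95% interval 2.9 to 5.35) more for HoxA, 4.95-fold (95% interval 3.72 to 6.69) for HoxB, 14.2-fold (95% interval 10.6 to 19.3) for HoxC and 5.1-fold (95% interval 4.21 to 6.22) for HoxD. In bulk RNA, fewer cells that express a gene and less RNA per cell cannot be told apart.

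Among the posterior members, Hoxc13, known for its role in hair and nails, had the largest difference on the log2(RPKM + 0.5) scale, which shrinks differences of low genes. It was at 0.239, 0.318 and 0.58 RPKM (12, 14 and 16 reads) in Mtgr1-/- clones A3, C1 and C3 and at 3.46, 4.32 and 7.85 RPKM (116, 223 and 243 reads) in the rescue of the same clones. The groups were far apart, and the log2 fold change was -2.64 ± 0.25 (SE), adjusted p = 1.0e-05. Hoxb13, the last gene of HoxB and active in the tail bud and prostate, was at 0.0369, 0 and 0.134 RPKM in Mtgr1-/- cells and 1.33, 1.44 and 1.32 RPKM in the rescue, a log2 fold change of -1.75 ± 0.19 (SE), adjusted p = 2.6e-05. Its RNA was thus nearly undetected in the knockout, with 1, 0 and 2 reads against 24, 40 and 22. Hoxd9, which takes part in limb and spinal patterning, was at 0, 0.0263 and 0.0841 RPKM in Mtgr1-/- cells and 0.552, 1.08 and 1.05 RPKM in the rescue (-1.35 ± 0.19 (SE), adjusted p = 0.000147). Hoxd13, required for digits and genitalia, was at 0.644, 0.624 and 0.569 RPKM in Mtgr1-/- cells and 1.28, 1.58 and 1.61 RPKM in the rescue (-0.84 ± 0.18 (SE), adjusted p = 0.00208). It was the highest member in Mtgr1-/- clones A3 and C1 but not in C3, where Hoxc13 was slightly higher. Hoxb9 and Hoxc10, of thoracic and lumbar identity, fell as well. Hoxb9 was at 0.0539, 0.164 and 0.164 RPKM in Mtgr1-/- cells and 0.242, 0.611 and 0.64 RPKM in the rescue (-0.65 ± 0.22 (SE), adjusted p = 0.026), and its call was lost without filter (adjusted p = 0.0579) and without Mtgr1-/- clone A3 (0.0885), rescue clone C1 (0.0897) or rescue clone C3 (0.0941). Hoxc10 was at 0.0507, 0 and 0 RPKM in Mtgr1-/- cells and 0.227, 0.222 and 0.452 RPKM in the rescue (-0.62 ± 0.13 (SE), adjusted p = 0.00206). In pooled reads relative to depth, where no value is added, the order was another one. The rescue had 32.1-fold (95% interval 10.7 to 159) more for Hoxd9, 30.0-fold (95% interval 9.94 to 148) for Hoxb13, 14.5-fold (95% interval 10.6 to 20.4) for Hoxc13, 13.6-fold (95% interval 3.41 to 118) for Hoxc10, 4.32-fold (95% interval 2.48 to 8) for Hoxb9 and 2.42-fold (95% interval 1.84 to 3.21) for Hoxd13. The intervals of the first 4 overlap, and that of Hoxd13 lies below all 4.

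The central members Hoxb7, Hoxc4, Hoxd4 and Hoxd8, which pattern the neck and trunk, fell as well. Hoxd4 was at 0.0189, 0.0216 and 0.0345 RPKM in Mtgr1-/- cells, which is 1, 1 and 1 reads, and at 1.05, 1.03 and 0.675 RPKM in the rescue (-1.42 ± 0.16 (SE), adjusted p = 3.1e-05). Pooled over clones, the rescue had 40.2-fold (95% interval 13.4 to 198) more Hoxd4 reads relative to depth, so that its RNA was near 0 in Mtgr1-/- cells. In GENCODE gene models the exons of Hoxd4 overlap those of Hoxd3 over 67.4% of their bases. The reads were counted on RefSeq models, in which the overlap was not measured. Hoxd3 had 2, 5 and 3 reads in the rescue and 1, 1 and 0 in Mtgr1-/- cells. Hoxb7 was at 0.0764, 0.131 and 0.0696 RPKM in Mtgr1-/- cells and 0.743, 0.817 and 0.681 RPKM in the rescue (-1.07 ± 0.15 (SE), adjusted p = 0.000131). It overlaps Hoxb8 over 26.2% of its exon bases in the GENCODE models. Hoxd8 was at 0.0449, 0.0512 and 0.0818 RPKM in Mtgr1-/- cells and 0.604, 0.851 and 0.509 RPKM in the rescue (-1.04 ± 0.16 (SE), adjusted p = 0.000219). Hoxc4, the most anterior member of HoxC, had 2, 0 and 0 reads in Mtgr1-/- cells and 10, 12 and 12 in the rescue (-0.76 ± 0.17 (SE), adjusted p = 0.00356).

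Of the anterior members, Hoxd1 fell. It was at 0.156, 0.386 and 0.284 RPKM in Mtgr1-/- cells and 1.64, 1.7 and 0.464 RPKM in the rescue, where clone C3 was well below the other 2 (-1.10 ± 0.28 (SE), adjusted p = 0.00656). The 8 tested members that did not pass had log2 fold changes between -0.52 (Hoxa13) and -0.15 (Hoxd11). Hoxa13 had 0 reads in each of the 3 Mtgr1-/- libraries and 5, 4 and 4 in the rescue. With the Mtgr1-/- group set to a floor of 3 reads the rescue was 4.54-fold higher. The exact binomial lower 95% limit, which uses no floor, was 3.19. Hoxc6, not tested, had 0 reads in Mtgr1-/- cells and 1, 7 and 3 in the rescue, 3.84-fold higher by the same floor, and its lower limit without a floor was 2.63. Hoxc12 had 1, 0 and 0 reads in Mtgr1-/- cells and 3, 2 and 2 in the rescue, a ratio of 7.34 with an interval of 0.943 to 331, so that no difference was detectable at this depth. Hoxb1, which marks the early streak and hindbrain, had 3, 4 and 0 reads in Mtgr1-/- cells and 2, 2 and 3 in the rescue, and the groups overlapped.

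**Figure D3:**
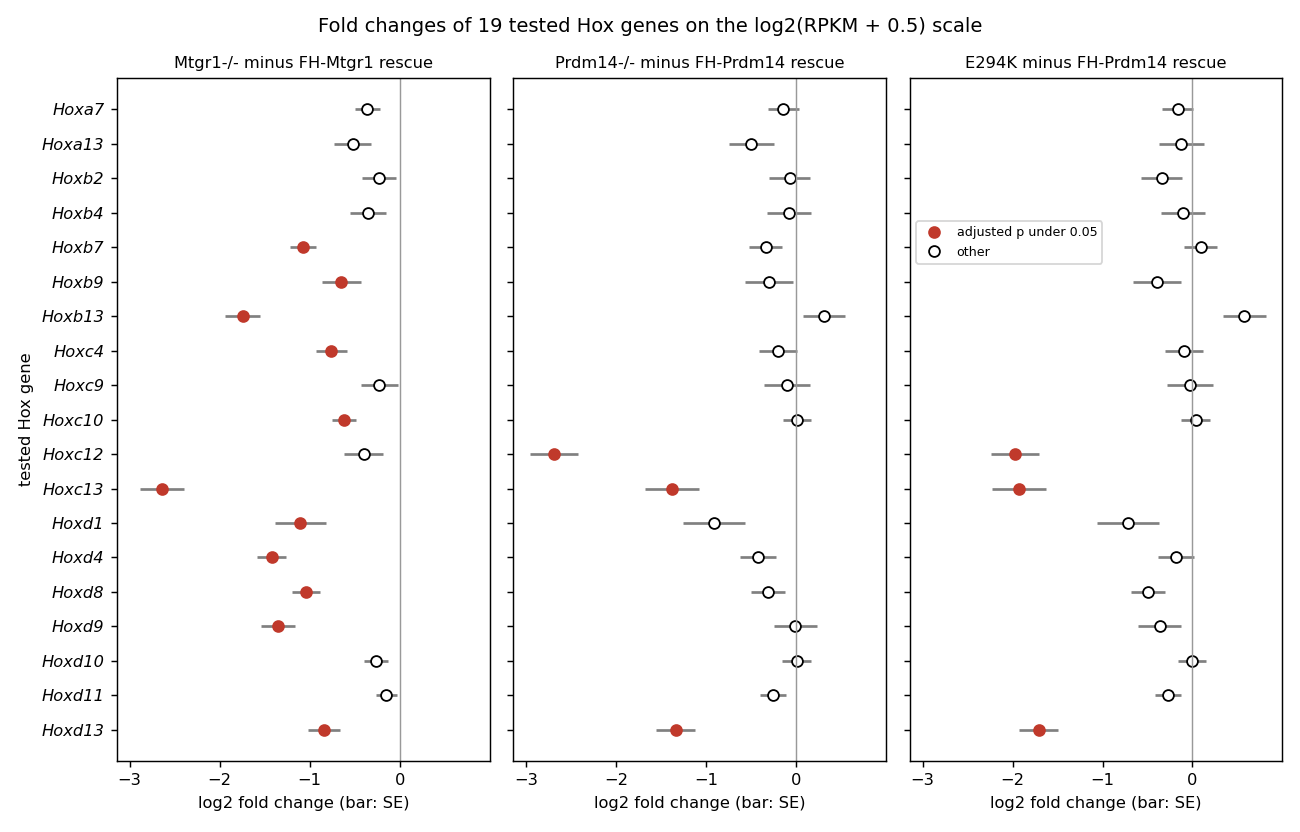
Log2 fold change (x axis, on the log2(RPKM + 0.5) scale, bars are SE) of 19 of the 20 tested Hox genes (y axis) in 3 comparisons, with filled points at an adjusted p under 0.05. All 19 points lie below 0 for Mtgr1-/- cells against their rescue, with 11 filled, and Hoxc12, Hoxc13 and Hoxd13 are the filled points in both other panels.

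The second comparison asks the same of Prdm14-/- cells and the FH-Prdm14 rescue, whose Prdm14 RNA was far above that of wt serum+LIF cells. In Prdm14-/- cells 3 of the 20 tested members were lower than in the FH-Prdm14 rescue and 0 higher, while 13.3% of all genes tested were lower and 10% higher. The median log2 fold change was -0.24 for the 20 members and -0.09 for all genes. In 12 of the 20 both Prdm14-/- libraries lay below both rescue libraries, against 39.7% of all genes. The 3 genes were the last of HoxC and HoxD. Hoxc12, which lies next to Hoxc13, was at 0 and 0.37 RPKM in Prdm14-/- clones G6 and F10 and at 3.42 and 4.1 RPKM in their rescue (-2.69 ± 0.27 (SE), adjusted p = 4.8e-05). That is 0 and 4 reads against 37 and 50. Hoxc13 was at 1.98 and 2.05 RPKM in Prdm14-/- cells and 5.63 and 6.51 RPKM in the rescue (-1.38 ± 0.30 (SE), adjusted p = 0.00617), and without rescue clone F10 the adjusted p was 0.0545. Hoxd13 was at 0.729 and 0.784 RPKM in Prdm14-/- cells and 3.35 and 2.12 RPKM in the rescue (-1.34 ± 0.22 (SE), adjusted p = 0.000969). In wt serum+LIF cells, with 1 library, Hoxc12 was at 0.523 RPKM, Hoxc13 at 3.73 RPKM and Hoxd13 at 1.01 RPKM. Each of these values lay between the Prdm14-/- and the FH-Prdm14 libraries, so the gap includes a rise above wt cells in the rescue. When the compared conditions alone were fitted, 5 members passed.

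Several members that fell in Mtgr1-/- cells were lower with FH-Prdm14 than with FH-Mtgr1. Hoxb13 was at 0.591 and 0.178 RPKM in Prdm14-/- cells and 0.296 and 0.105 RPKM in the rescue, with overlapping groups and a log2 fold change of 0.31 ± 0.23 (SE), adjusted p = 0.377. Hoxd9 was at 0.287 and 0.371 RPKM and 0.371 and 0.296 RPKM (-0.01 ± 0.24 (SE), adjusted p = 0.993), and Hoxd4 at 0.0337 and 0.122 RPKM and 0.304 and 0.243 RPKM (-0.42 ± 0.20 (SE), adjusted p = 0.143). In each case the FH-Prdm14 level was below the lowest FH-Mtgr1 rescue library. Relative to the single wt serum+LIF library, FH-Prdm14 lay below it for Hoxb13 (1.92 RPKM) and Hoxd4 (0.886 RPKM). For Hoxd9 (0.24 RPKM) it lay above. Hoxd1 was at 0.324 and 0.251 RPKM in Prdm14-/- cells and 1.21 and 0.78 RPKM in the rescue, without overlap but short of the threshold (-0.91 ± 0.34 (SE), adjusted p = 0.0753). Pooled reads were 3.28-fold (95% interval 2.72 to 3.98) more frequent in the rescue for HoxC, 2.97-fold (95% interval 2.35 to 3.79) for HoxD, 1.67-fold (95% interval 1.14 to 2.46) for HoxA and 1.33-fold (95% interval 0.934 to 1.9) for HoxB, with an interval for HoxB that includes 1.

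The E294K rescue carries Prdm14 RNA at levels within the range of the FH-Prdm14 rescue, for a protein made to lose its contact with Mtgr1. Against the FH-Prdm14 rescue, 3 of the 20 tested members were lower with E294K and 0 higher, while 12.9% of all genes were lower and 5.62% higher. They were again Hoxc12, Hoxc13 and Hoxd13, in a comparison that shares the FH-Prdm14 libraries with the one above. Hoxc12 was at 0.671 and 0.506 RPKM with E294K (-1.97 ± 0.27 (SE), adjusted p = 0.000522), Hoxc13 at 1.42 and 1.05 RPKM (-1.93 ± 0.30 (SE), adjusted p = 0.00126) and Hoxd13 at 0.455 and 0.491 RPKM (-1.71 ± 0.22 (SE), adjusted p = 0.000337). All 3 lay below both FH-Prdm14 libraries in both clones. Hoxb13 was at 0.67 and 0.417 RPKM with E294K and 0.296 and 0.105 RPKM with FH-Prdm14, a difference in the other direction that did not pass (0.58 ± 0.23 (SE), adjusted p = 0.108). Between E294K and Prdm14-/- cells, 0 of the 20 members passed and 2 had an unadjusted p under 0.05 (Hoxb7 and Hoxc12), against 28.3% of all genes that passed, and 1 member passed with voom on the reads. The log2 fold change from Prdm14-/- to E294K was 0.72 ± 0.27 (SE), adjusted p = 0.0611 for Hoxc12, -0.54 ± 0.30 (SE), adjusted p = 0.195 for Hoxc13 and -0.37 ± 0.22 (SE), adjusted p = 0.217 for Hoxd13. Pooled over the 39 genes, Prdm14-/- cells had 334 reads and the E294K rescue 369. Relative to depth, the ratio of E294K over Prdm14-/- was 0.835 (95% interval 0.718 to 0.971), where the interval covers counting error alone. Each E294K library had fewer Hox reads relative to depth than each Prdm14-/- library. In summed RPKM the groups overlapped, at 6.44 and 5.06 RPKM with E294K and 6.07 and 6.16 RPKM in Prdm14-/- cells. These sums were given no test, so no difference between the groups is concluded.

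**Figure D4:**
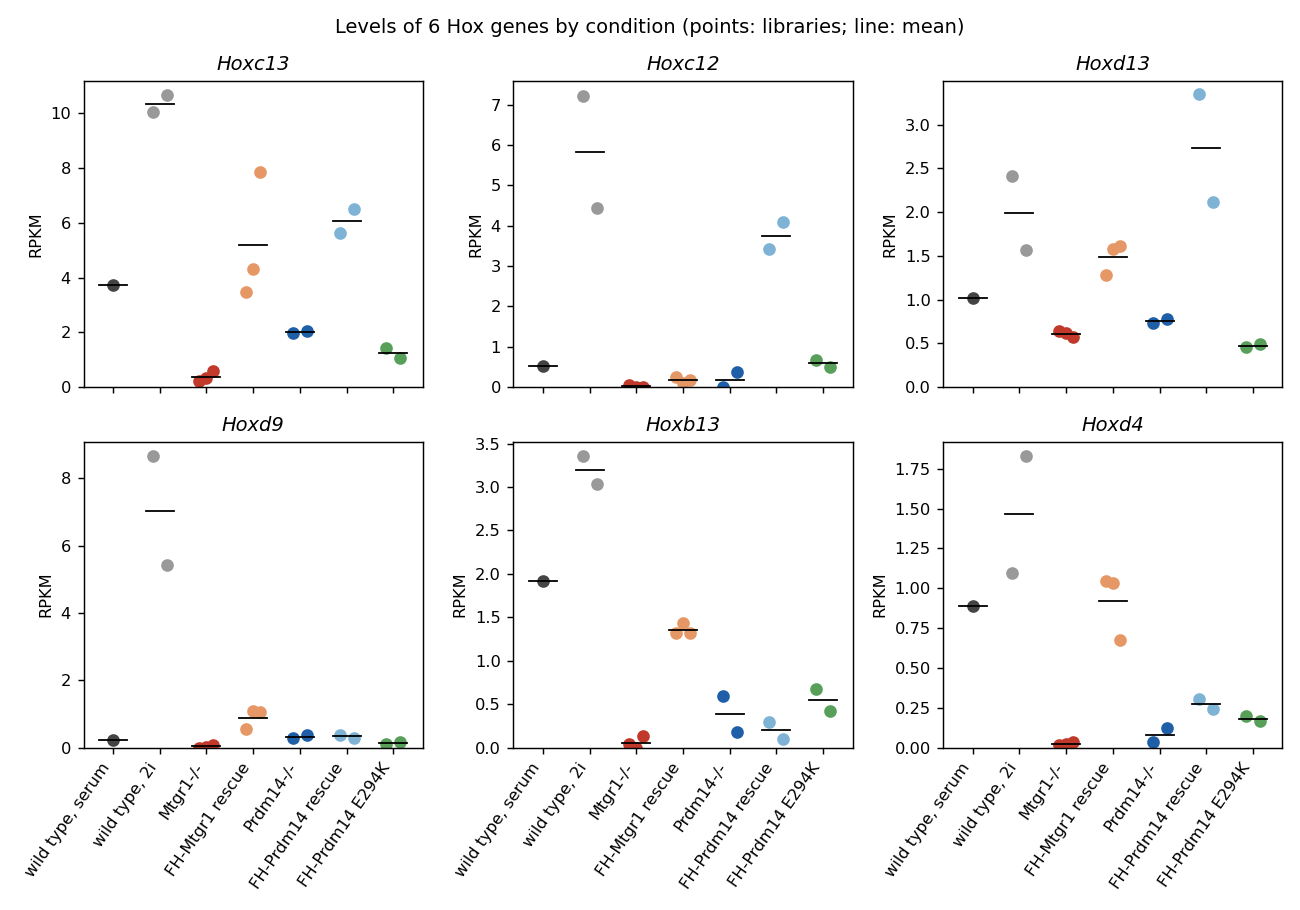
RPKM (y axes from 0, each with its own scale) of 6 Hox genes in the 7 conditions, with a point per library and a line at the mean. Hoxc12 and Hoxd13 are high with FH-Prdm14 and low with E294K, and Hoxb13 and Hoxd4 are higher in the FH-Mtgr1 rescue (Hoxb13 at 1.33, 1.44 and 1.32 RPKM) than in any serum+LIF line that lacks or overexpresses Prdm14.

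The rescue lines were also compared with each other, and likewise the knockouts. FH-Prdm14 and FH-Mtgr1 lines differed at 8 of 20 members, with 6 lower and 2 higher with FH-Prdm14, while 13.7% of all genes were lower and 24.2% higher. Hoxc12 was at 3.42 and 4.1 RPKM with FH-Prdm14 and 0.258, 0.112 and 0.186 RPKM with FH-Mtgr1 (2.64 ± 0.24 (SE), adjusted p = 2.0e-05), and Hoxd13 at 3.35 and 2.12 RPKM and 1.28, 1.58 and 1.61 RPKM (0.68 ± 0.20 (SE), adjusted p = 0.0182). These 2 were higher in each FH-Prdm14 library. Lower with FH-Prdm14 were Hoxb13 (-1.42 ± 0.21 (SE), adjusted p = 0.00042), Hoxb7 (-0.89 ± 0.17 (SE), adjusted p = 0.00175), Hoxd4 (-0.86 ± 0.18 (SE), adjusted p = 0.00306), Hoxd9 (-0.72 ± 0.21 (SE), adjusted p = 0.0208), Hoxc10 (-0.57 ± 0.15 (SE), adjusted p = 0.00967) and Hoxd8 (-0.55 ± 0.17 (SE), adjusted p = 0.0274). Hoxc13, at 5.63 and 6.51 RPKM with FH-Prdm14 and 3.46, 4.32 and 7.85 RPKM with FH-Mtgr1, overlapped (0.27 ± 0.28 (SE), adjusted p = 0.456). The calls of Hoxd9 and Hoxd8 were lost in 5 of 23 alternative fits each, that of Hoxd13 in 2 of 23 and that of Hoxc10 in 1 of 22, and leaving out FH-Prdm14 G6 alone ended each of these 4. Between the knockouts, 3 members were lower in Mtgr1-/- than in Prdm14-/- cells, against 18.9% of all genes, and 0 were higher, against 12.9%. These were Hoxc13 (-1.54 ± 0.28 (SE), adjusted p = 0.00164), Hoxb13 (-0.63 ± 0.21 (SE), adjusted p = 0.0401) and Hoxd9 (-0.63 ± 0.21 (SE), adjusted p = 0.042). The call of Hoxb13 was lost in 9 of 23 and that of Hoxd9 in 12 of 23 alternative fits, whereas Hoxc13 passed in all 23. By a test of the difference itself, the effect of losing Mtgr1 and that of losing Prdm14, each against its own rescue, differed at 8 of the 20 members, while 28.6% of all genes did.

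Wt cells in serum+LIF gave 1 library, so their comparisons rest on the spread of the other conditions. Against them 8 members were lower in Mtgr1-/- cells (20.7% of all genes) and 3 in Prdm14-/- cells (11.6%), and 0 were higher (13.3% and 9.67% of all genes). In Mtgr1-/- cells the largest differences were those of Hoxc13 (-2.28 ± 0.35 (SE), adjusted p = 0.00062), Hoxb13 (-2.13 ± 0.27 (SE), adjusted p = 0.000228) and Hoxd4 (-1.40 ± 0.23 (SE), adjusted p = 0.000855). The others were Hoxd1 (-1.10), Hoxc12 (-0.98), Hoxb9 (-0.85), Hoxc4 (-0.72) and Hoxb7 (-0.68), with adjusted p between 0.0269 and 0.0497. These 5 calls were lost in 13 of 22 alternative fits for Hoxd1, 4 of 22 for Hoxc12, 14 of 22 for Hoxb9, 9 of 22 for Hoxc4 and 2 of 21 for Hoxb7, and leaving out Mtgr1-/- C3 alone ended each of them. All genes together were shifted by -0.12 in this comparison. Hoxd8, Hoxd9, Hoxc10 and Hoxd13, which fell against the rescue, are not among the 8 members lower than in wt cells. They were at 0.263, 0.24, 0.165 and 1.01 RPKM in wt serum+LIF cells, between the Mtgr1-/- and the FH-Mtgr1 libraries. Their rescue levels thus exceeded the wt level, while those of Hoxb13 lay below it. Prdm14-/- cells differed from wt cells at Hoxb13 (-1.49 ± 0.29 (SE), adjusted p = 0.00647), Hoxd4 (-1.27 ± 0.24 (SE), adjusted p = 0.00615) and Hoxb7 (-0.83 ± 0.22 (SE), adjusted p = 0.0244), and the call of Hoxb7 was lost without either Prdm14-/- library (adjusted p = 0.0632 and 0.0665). In wt serum+LIF cells Hoxb13 was at 1.92 RPKM, Hoxd4 at 0.886 RPKM and Hoxb7 at 0.447 RPKM, above both FH-Prdm14 rescue libraries in each case. Prdm14-/- cells fitted with wt serum+LIF cells alone gave 0 calls, in a fit with 1 library in one arm.

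Cells in 2i+LIF held the most Hox RNA of all conditions. Between wt 2i+LIF and wt serum+LIF cells, 8 of the 20 tested members were higher in 2i+LIF and 0 lower, while 8.04% of all genes were higher and 12.6% lower, and all genes together were shifted by -0.11. Hoxd9 was at 8.66 and 5.43 RPKM in 2i+LIF and 0.24 RPKM in serum+LIF (3.32 ± 0.29 (SE), adjusted p = 2.9e-05). It was below both 2i+LIF values in every serum+LIF library. The FH-Mtgr1 rescue, at 0.552, 1.08 and 1.05 RPKM, and the FH-Prdm14 rescue, at 0.371 and 0.296 RPKM, lay above wt serum+LIF cells. Hoxc12 was at 7.23 and 4.45 RPKM in 2i+LIF and 0.523 RPKM in serum+LIF (2.60 ± 0.33 (SE), adjusted p = 0.000377), and Hoxc13 at 10.1 and 10.7 RPKM and 3.73 RPKM (1.36 ± 0.37 (SE), adjusted p = 0.0235). Unlike Hoxd9, both had high levels in the FH-Prdm14 rescue too. Hoxc4 was at 2.46 and 2.09 RPKM in 2i+LIF and 0.349 RPKM in serum+LIF (1.70 ± 0.26 (SE), adjusted p = 0.00129), Hoxd8 at 2.3 and 1.52 RPKM and 0.263 RPKM (1.64 ± 0.23 (SE), adjusted p = 0.000781), and Hoxc9 at 1.36 and 0.409 RPKM and 0 RPKM (1.38 ± 0.31 (SE), adjusted p = 0.00994). Hoxd11 (1.02 ± 0.18 (SE), adjusted p = 0.00248) and Hoxb9 (1.01 ± 0.32 (SE), adjusted p = 0.0452) were the other 2. Hoxc9 and Hoxd11 were tested only because of their 2i+LIF levels, so their calls do not add to the count as independent results. The call of Hoxb9 was lost in 15 of 22 alternative fits, among them voom (adjusted p = 0.0956) and the fit without the first 2i+LIF library (0.65, adjusted p = 0.162). Of the anterior members none passed, with Hoxd1 at 0.453 and 0.168 RPKM in 2i+LIF and 1.15 RPKM in serum+LIF (-1.05 ± 0.42 (SE), adjusted p = 0.0975). The pair of 2i+LIF libraries differed from each other, as for Hoxa13 (11 and 2 reads) and Hoxb2 (1 and 12 reads). With these 3 libraries fitted alone, 0 members passed.

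**Figure D5:**
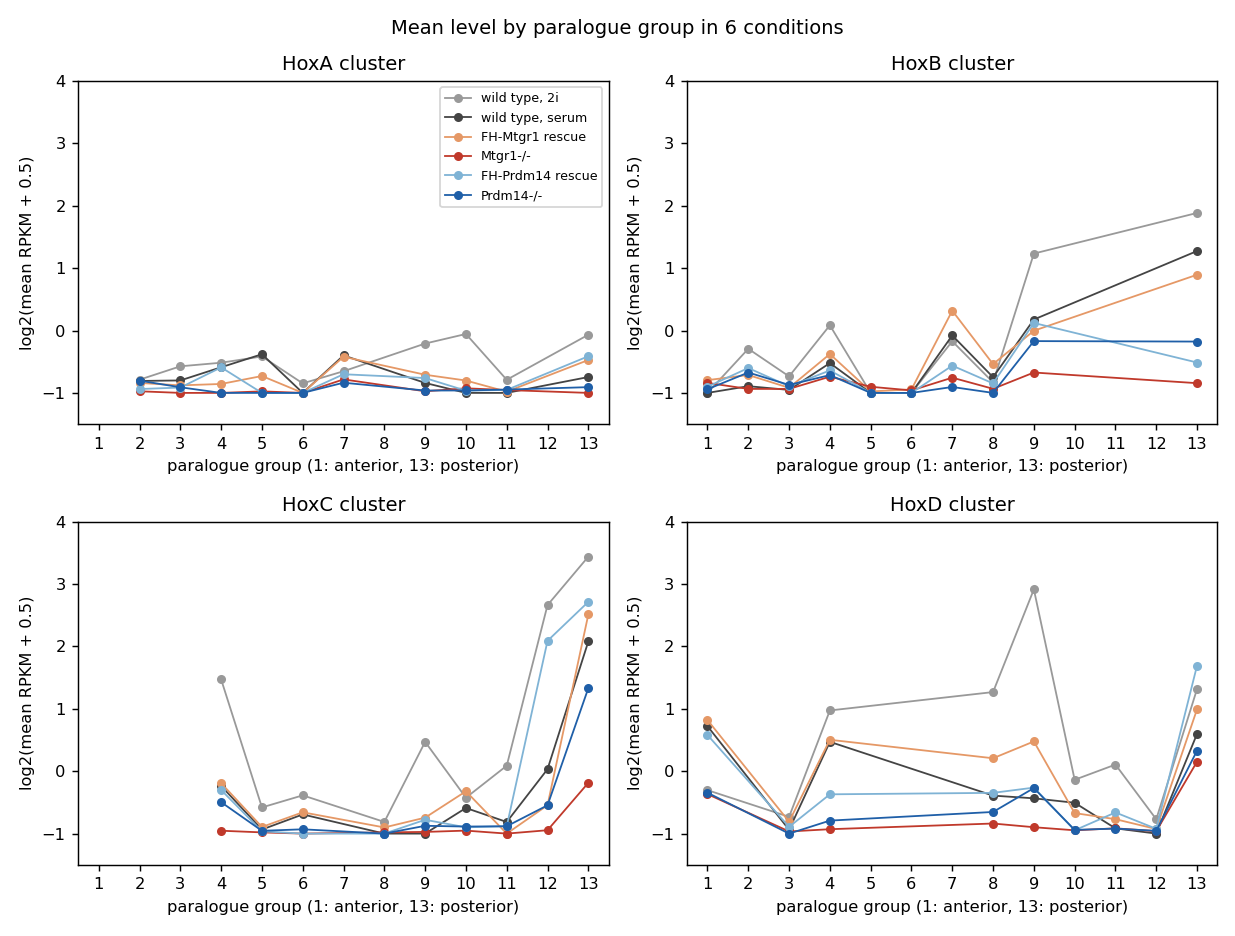
Mean level of 38 members, as log2(mean RPKM + 0.5), against its paralogue group (1 is anterior, 13 posterior) in 6 conditions (the E294K rescue is not drawn), in 1 panel per cluster. The 2i+LIF line rises at the posterior end of HoxB, HoxC and HoxD and has a further peak at Hoxd9, and of the 6 lines that of Mtgr1-/- cells lies lowest at Hoxb13, Hoxc13 and Hoxd13.

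Genes that are known to act with or on the Hox clusters moved in both directions, and their counts are set beside the shares over all genes, 25% lower and 23.7% higher in Mtgr1-/- cells and 13.3% lower and 10% higher in Prdm14-/- cells. Of 9 cofactor genes, 4 rose and 2 fell in Mtgr1-/- cells relative to their rescue, and 4 rose and 1 fell in Prdm14-/- cells, where Pbx2, Pbx3 and Meis3 were among those higher in both. Meis3 was at 4.11, 4.72 and 5.52 RPKM in Mtgr1-/- cells and 0.788, 0.615 and 0.513 RPKM in the rescue (2.21, adjusted p = 3.8e-06). Of 16 tested genes of retinoic acid synthesis, breakdown and reception, 9 rose and 3 fell in Mtgr1-/- cells, and 3 rose and 4 fell in Prdm14-/- cells. Cyp26a1, which breaks down retinoic acid, was at 1.06, 1.18 and 1.98 RPKM in Mtgr1-/- cells and 0.203, 0.318 and 0.441 RPKM in the rescue (1.20, adjusted p = 0.00144), and Crabp1, which binds it in the cytoplasm, at 12.9, 14 and 7.26 RPKM and 51.5, 48.5 and 37 RPKM (-2.0, adjusted p = 1.7e-05). Of the 7 tested Cdx, ParaHox and Evx genes, 1 was higher (Cdx4, 0.365, 0.208 and 1.16 RPKM against 0, 0 and 0) and 1 lower (Pdx1) in Mtgr1-/- cells, and 0 passed in Prdm14-/- cells. Cdx4 is known as an inducer of central Hox genes, and its part in the Hox levels was not tested.

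Of 21 Polycomb genes, 8 were lower and 4 higher in Mtgr1-/- cells, and 5 lower and 1 higher in Prdm14-/- cells. Ezh1, a Polycomb methyltransferase, was at 5.26, 5.39 and 3.94 RPKM in Mtgr1-/- cells and 23.1, 23.6 and 17.8 RPKM in the rescue (-2.04, adjusted p = 9.8e-06), and Suz12, a core subunit, at 41.8, 40.7 and 32.6 RPKM and 78.5, 95.2 and 109 RPKM (-1.28, adjusted p = 3.6e-05). The 4 that rose were Jarid2, Rbbp7, Ring1 and Phc2. Jarid2 had a mean of 68.9 RPKM in Mtgr1-/- cells and 40.5 RPKM in the rescue (0.75, adjusted p = 0.002). Of 7 Trithorax genes, 2 rose and 2 fell in Mtgr1-/- cells, and 0 rose and 2 fell in Prdm14-/- cells. Of the tested genes beside the clusters, most did not pass in Mtgr1-/- cells, with 2 of 5 lower beside HoxA, 2 of 6 beside HoxB, 3 of 6 beside HoxC and 1 of 5 beside HoxD, and 1 higher in all, beside HoxD, where 25% of all genes were lower and 23.7% higher. In Prdm14-/- cells, 3, 3, 0 and 1 of them were lower and 0 higher. Ttll6, beside HoxB, was at 0.877, 0.673 and 0.358 RPKM in Mtgr1-/- cells and 2.51, 3.1 and 2.84 RPKM in the rescue (-1.57, adjusted p = 4.4e-05), while Cbx5, beside HoxC, did not pass (-0.07, adjusted p = 0.758). Of 16 noncoding transcripts of the clusters, 8 had a row and 1 was tested. This was Mir196a-1 in HoxB, with 1, 0 and 0 reads in Mtgr1-/- cells and 4, 9 and 2 in the rescue (-2.34, adjusted p = 0.00394), which in oligo-dT RNA are reads of a longer transcript and not of the mature miRNA.

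Markers of other cell types moved in the same comparisons, in which 25% of all genes were lower and 23.7% higher for Mtgr1-/- cells and 13.3% and 10% for Prdm14-/- cells. The 6 trophoblast markers added up to between 132 and 160 RPKM in Mtgr1-/- cells and between 12.7 and 15.4 RPKM in the rescue, with 4 higher and 0 lower, and to between 76.2 and 105 RPKM in Prdm14-/- cells against 16.1 and 16.7 RPKM with FH-Prdm14. Krt7 made up most of this, at 89.2, 88.1 and 116 RPKM in Mtgr1-/- cells. With E294K the 6 trophoblast markers added up to 14.8 and 15.3 RPKM, near the FH-Prdm14 level. The 6 stem cell markers added up to between 760 and 847 RPKM in Mtgr1-/- cells and between 947 and 1010 RPKM in the rescue, with 2 lower and 0 higher. They added up to 786 and 1028 RPKM in Prdm14-/- cells, 1885 and 1939 RPKM with FH-Prdm14 and 1500 and 1633 RPKM with E294K, with 5 and 4 of 6 lower than with FH-Prdm14. Of the 7 tested fibroblast markers, whose source cells can express Hox genes at high levels, 4 rose and 3 fell in Mtgr1-/- cells, and 1 rose in Prdm14-/- cells. The 11 fibroblast markers added up to between 15.2 and 32.3 RPKM in Mtgr1-/- cells, between 32.7 and 37.9 RPKM in the rescue and 6.17 and 6.53 RPKM in 2i+LIF. Of the primitive streak, neural and extraembryonic endoderm markers, 2, 1 and 0 were higher and 1, 3 and 2 lower in Mtgr1-/- cells, and 2, 2 and 2 higher and 0, 1 and 0 lower in Prdm14-/- cells. The part of any of these cell types in the Hox levels was not tested.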

How the data were processed

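The authors aligned reads of oligo-dT purified RNA to mm9 (NCBIM37) with Tophat and counted them on RefSeq genes with HTSeq, and deposited RPKM values with the gene length for each of 15 libraries. Reads were computed back from RPKM and length, which gave whole numbers for all values within a tolerance of 0.001, with 10668572 to 21218414 reads per library (median 13793727). Intervals on pooled reads are exact binomial at a 95% level and cover counting error alone. Where a group had 0 reads, a ratio against a floor of 3 reads is given beside them.

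Genes with a mean of at least 0.1 RPKM over all 15 libraries were kept (16200 genes). Log2(RPKM + 0.5) of the 15 libraries was fitted in limma 3.58.1 (R 4.3.3) with 1 mean per condition and a trended eBayes prior, and p-values were adjusted over all genes by the Benjamini-Hochberg method at 0.05. The pseudocount understates the change of low genes. Other steps used Python 3.11.15, scipy 1.17.1 and pandas 2.3.3. On simulated data for the comparison of Mtgr1-/- with its rescue (16180 genes, 200 changed by a factor of 4) 92.42% of changed genes were recovered, 74.14% for a mean under 2 RPKM, with 6 false calls. The real comparison differs from this setting, with 25% of genes called lower and 23.7% higher. The median mean of the Hox genes was 0.105 RPKM, far under 2 RPKM. The simulated shares therefore do not tell how many changed Hox genes would be found.

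Members with full values are those past the threshold in either knockout against its rescue, or with a mean of at least 1 RPKM, and members past it in another comparison are named there. The members and lists were chosen with earlier results of these data known. Rescue lines were made from the knockout clones, so that clone names pair the libraries. Deviations from group means correlated between Mtgr1-/- and FH-Mtgr1 libraries of a clone at 0.0628 (A3), -0.158 (C1) and 0.0252 (C3), and between Prdm14-/- and FH-Prdm14 libraries at 0.257. Alternatives were a replicate block by clone, pseudocounts of 0.1 and 1, other filters, voom on the reads, an adjustment for GC content, the compared conditions alone, other scaling, and leaving out each library. Samples of ChIP-seq were not used here, and 1 member and 1 cofactor gene, counted in all totals, are not reported individually here.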

Additional observations from a re-analysis of the deposited data

Results flagged for a closer look

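The effect of losing Mtgr1 and that of losing Prdm14, each against its own rescue, differed at 8 of the 20 tested Hox genes by a test of the difference itself (limma contrast on the log2(RPKM + 0.5) scale), while 28.6% of all genes tested differed in either direction. A negative value means that the gene was lower by more in Mtgr1-/- cells, relative to their rescue, than in Prdm14-/- cells relative to theirs. Values were negative for 7 genes. Hoxb13 had a difference of -2.05 ± 0.30 (SE), adjusted p = 0.000674. Hoxd9 had a difference of -1.35 ± 0.30 and Hoxc13 of -1.26 ± 0.39. Hoxd4 had a difference of -1.0 ± 0.25, and Hoxb7, Hoxd8 and Hoxc10 had differences of -0.74, -0.72 and -0.63. Hoxc12 had a difference of 2.29 ± 0.34, adjusted p = 0.000731, as it was lower in Prdm14-/- cells than with FH-Prdm14 and at or near 0 reads in both Mtgr1 groups. The rescue lines themselves differed at 7 of these 8 genes, all but Hoxc13, so that the difference also holds that between an overexpressed Prdm14 and a returned Mtgr1, and these cannot be told apart in this design. The calls of Hoxb13 and Hoxd9 held in all 24 alternative fits, whereas those of Hoxc12, Hoxd4, Hoxc13 and Hoxd8 were lost in 1, 2, 8 and 14 of 24 and those of Hoxc10 and Hoxb7 in 8 and 13 of 23. With a replicate block by clone 6 genes passed, and the adjusted p was 0.0652 for Hoxb7 and 0.0815 for Hoxd8.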

How the results depend on the processing

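No call of a Hox gene changed direction under an alternative, and 71 of 89 counts of called members stayed within 1.5 times the count reported. With a replicate block by clone, 12 members passed for Mtgr1-/- against its rescue, 3 for Prdm14-/- against its rescue, 3 for E294K against FH-Prdm14, 0 for E294K against Prdm14-/- and 6 for the difference between the knockout effects. The block changed no call other than those of Hoxb7 and Hoxd8 in that difference. For E294K against Prdm14-/- (0 called), 1 passed with a pseudocount of 0.1, with voom, with the compared conditions alone and with the block and GC adjustment together, and 2 with the GC adjustment. For Mtgr1-/- against Prdm14-/- (3), 1 passed with a pseudocount of 1, without filter and with the GC adjustment. For Mtgr1-/- against wt (8), 4 passed with a pseudocount of 1 and with a minimum of 1 RPKM in 2 libraries. That filter, which leaves fewer Hox genes to test, gave 5 for FH-Prdm14 against FH-Mtgr1 (8), for 2i+LIF against serum+LIF (8) and for the difference (8). Prdm14-/- against wt (3) gave 5 with the GC adjustment. With the compared conditions alone, Prdm14-/- against its rescue gave 5, E294K against FH-Prdm14 gave 6, and Prdm14-/- and 2i+LIF against wt serum+LIF gave 0 each.

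Leaving out 1 library gave 11 to 15 called members for Mtgr1-/- and 2 to 4 for Prdm14-/- against their rescue, 3 to 5 for E294K against FH-Prdm14, 0 to 3 for E294K against Prdm14-/-, 1 to 3 between the knockouts, 4 to 8 between the rescue lines, 3 to 9 and 2 to 4 for Mtgr1-/- and Prdm14-/- against wt, 7 to 11 for 2i+LIF against serum+LIF and 3 to 9 for the difference. Without either 2i+LIF library 5 members passed for E294K against FH-Prdm14 and 3 against Prdm14-/-, and without Prdm14-/- F10 1 passed against Prdm14-/-. Between the knockouts 1 passed without Mtgr1-/- A3 or C1 or Prdm14-/- G6, and between the rescue lines 4 without FH-Prdm14 G6. Mtgr1-/- against wt gave 4 without Mtgr1-/- A3 or C1, 3 without C3 and 5 without either FH-Prdm14 library. The difference gave 5 without any 1 Mtgr1-/- or E294K library, Prdm14-/- G6 or FH-Prdm14 G6, 4 without Prdm14-/- F10 and 3 without FH-Prdm14 F10.

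The log2 ratio of summed RPKM was -2.02 (HoxA), -2.58 (HoxB), -3.81 (HoxC) and -2.35 (HoxD) for Mtgr1-/- against its rescue, and -0.85, -0.33, -2.0 and -1.55 for Prdm14-/- against its rescue. Without the highest member of the cluster it was -2.61 for HoxA, -1.97 for HoxB and -3.10 for HoxD in the Mtgr1 pair, and -1.53 for HoxA and -2.92 for HoxC in the Prdm14 pair, and the others moved by less than the spread between libraries. Leaving out 1 library gave -2.16 to -1.91, -2.71 to -2.45, -4.02 to -3.43 and -2.48 to -2.22 in the Mtgr1 pair, and -1.1 to -0.64, -0.61 to -0.06, -2.18 to -1.84 and -1.79 to -1.26 in the Prdm14 pair, for HoxA to HoxD. The cause of these changes was not tested. Depth limits the 19 untested members, which had at most 24 reads in a library.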
